A study of Mus musculus with 8 samples.

Results

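The TIF1 family comprises Trim24, Trim28, Trim33 and Trim66, and the transcripts of these 4 genes were followed in MB21 cells, a mouse medulloblastoma line whose genotype is given as ptch mutant. They are 4 of 55416 gene identifiers in the count table, matched by symbol, and all 4 were among the 15133 genes tested. Trim66 was picked because it fell strongly in this same comparison, so its values are a description without a test. The other members were taken because they belong to the family. Messenger RNA was sequenced from 4 libraries of cells given the DMSO vehicle (called DMSO) and 4 of cells given 10 uM DS-1-38 (called DS38), a compound known here by its code name, for 5 days. Both groups carry the ptch mutation and grew unattached in B27-supplemented medium. All libraries are from this line, and whether libraries of a group derive from separate cultures is not given in the labels, and the p-values therefore measure the spread between these libraries, which may be technical.

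TIF1 proteins are large nuclear TRIM proteins that end in a PHD finger joined to a bromodomain. In some members, though not in all, this pair of modules reads unmodified or methylated and acetylated histone H3 tails. Trim28, also called KAP1, is the corepressor of the KRAB zinc finger proteins, through which retroelements and imprinted regions are silenced. Trim24 is a coregulator of retinoic acid receptors and a ubiquitin ligase for p53. Trim33 acts with or against Smad4 in the TGF-beta pathway. Trim66 is the least studied member, is known from testis and from olfactory neurons, and binds heterochromatin protein HP1.

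The start regions of the members are shown first, because that of Trim66 held fewer CpGs than those of Trim28 and of the upstream Trim24 start. RefSeq windows on GRCm38.p6, 250 bases before to 50 after a start, were matched for 3 of the 4 members, namely Trim24, Trim28 and Trim66. They are given 5′ to 3′ with every CpG in capitals, since CpG content is the contrast they show. The builds named for the counts include GRCm39, so these coordinates belong to the sequence table only. Trim66 lies at chr7:109508085-109508384 on the minus strand, Trim28 at chr7:13023902-13024201 and Trim24, for its upstream start, at chr6:37870561-37870860, both on the plus strand.
Trim66: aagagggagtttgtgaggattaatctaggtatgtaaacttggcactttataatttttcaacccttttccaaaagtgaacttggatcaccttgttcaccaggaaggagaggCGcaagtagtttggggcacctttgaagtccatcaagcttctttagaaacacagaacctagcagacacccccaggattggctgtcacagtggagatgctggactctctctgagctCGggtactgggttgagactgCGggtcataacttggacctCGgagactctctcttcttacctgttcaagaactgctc
Trim28: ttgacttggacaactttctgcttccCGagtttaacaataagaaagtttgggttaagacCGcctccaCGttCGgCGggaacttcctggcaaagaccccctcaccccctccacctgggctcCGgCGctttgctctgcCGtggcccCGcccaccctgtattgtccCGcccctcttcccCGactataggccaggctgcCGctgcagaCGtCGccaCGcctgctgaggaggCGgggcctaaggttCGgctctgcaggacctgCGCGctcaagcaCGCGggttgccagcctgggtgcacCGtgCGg
Trim24: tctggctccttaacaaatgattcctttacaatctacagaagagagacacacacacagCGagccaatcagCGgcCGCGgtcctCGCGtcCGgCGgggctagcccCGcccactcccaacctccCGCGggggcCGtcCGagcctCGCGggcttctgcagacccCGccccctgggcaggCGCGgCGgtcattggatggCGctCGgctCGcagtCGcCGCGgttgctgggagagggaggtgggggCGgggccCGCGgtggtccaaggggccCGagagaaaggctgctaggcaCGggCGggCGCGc

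The Trim66 window held 4 CpGs and 47.0% G and C, against a median of 7 CpGs and 52.7% over the 32851 windows of the table. The Trim28 window held 23 CpGs and 64% G and C, and the Trim24 window 33 CpGs and 70.3%. Fewer CpGs than in the Trim66 window were found in 31.4% of all windows, fewer than in Trim28 in 78.5% and fewer than in Trim24 in 91.4%. A second annotated start of Trim24, which is not shown, had 1 CpG and 46.7% G and C, so low CpG content was not limited to Trim66.

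Short motifs were looked for on both strands. GATGCAA, which is the core of the composite site of C/EBP and Atf4 factors, was in none of the windows of these 3 members and in 2.53% of all windows. GGGCGG, the GC box, was in the windows of Trim24 (4 matches) and Trim28 (2 matches), had no match in that of Trim66, and was in 35.7% of all windows. CCAAT was found in Trim66 on the opposite strand, where the match begins 66 bases before the start in the printed sequence. It was also in Trim24, with 2 matches, and in 37.4% of all windows. TATAAA had a match in the Trim66 window, 205 bases before the start and on the opposite strand, and in 13.6% of all windows. None of these motifs contains another, and a match describes the letters only.

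The libraries held 17142397 to 28476019 counts. The DS38 libraries formed 2 sets by the chi-square per degree of freedom between counts, a measure that grows with depth. It was 4.66 for libraries 1 and 2 and 4.31 for 3 and 4, but 11.7 to 20.7 across these pairs, against 4.58 to 8.3 within DMSO. Libraries 1 and 2 were also the deeper DS38 libraries, with 23185774 and 28476019 counts against 17142397 and 18920829 for 3 and 4. The fit took all 4 as 1 group, and the cause of the split was not tested. Values below are CPM, counts scaled to library size with TMM factors, or RPKM, the same per kilobase of gene length. Granule progenitor and Hedgehog medulloblastoma markers were present (10 of 10 tested, summed at 2306 to 2360 CPM in DMSO and 2536 to 2651 in DS38). The sum hides changes in both directions, as 6 rose and 3 fell at an adjusted p under 0.05 in edgeR. These are shares of 60% and 30%, against 18.8% and 20.7% of all tested genes. Gli1 (log2 fold change -0.60), Ptch1 (-0.56) and Zic1 (-0.16) fell, while the rises included Barhl1 (0.71), Atoh1 (0.60) and Meis1 (0.55). Their part in the results was not tested. Microglia and blood markers summed to at most 0.14 CPM in any library and olfactory neuron markers to at most 0.391 CPM. Fibroblast markers were low and higher with the compound, at 2.44 to 3.16 CPM in DMSO and 4.1 to 5.09 in DS38. Of these markers, 1 of 3 tested passed (33.3%, against 39.5% of all tested genes), and their part in the results was not tested. Endothelial markers (0.782 to 1.75 and 1.47 to 1.81 CPM) and oligodendrocyte markers (2.13 to 2.7 and 2.42 to 3.15 CPM) stayed low. Of the astrocyte list (221 to 260 and 240 to 271 CPM), nearly all came from Slc1a2, a glutamate transporter gene whose means were 245 and 250 CPM, while Gfap, the astrocyte filament gene, rose from 1.83 to 3.07 CPM (adjusted p = 0.00421 in edgeR); its part in the results was not tested. In bulk RNA, fewer cells expressing a gene and less RNA per cell cannot be told apart.

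Trim66 transcripts fell to 10.3% of their level in DMSO (ENSMUSG00000031026). In DMSO libraries 1 to 4 the gene stood at 46.1, 57.1, 58.8 and 56.2 CPM, and in DS38 libraries 1 to 4 at 5.11, 6.74, 7.15 and 3.49 CPM. DMSO library 1 was the lowest of its group and DS38 library 4 the lowest of all, and the groups were far from overlapping: the lowest DMSO library was 6.45-fold above the highest DS38 library. The means were 54.5 ± 5.75 and 5.62 ± 1.67 CPM (SD, n = 4 each), a log2 fold change of -3.26 ± 0.175 SE, or 9.60-fold lower. These values rest on 4643 counts in DMSO and 509 in DS38.

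The Trim66 RNA that remained was also the most variable of the family. Its coefficient of variation was 10.5% in DMSO and 29.8% in DS38, and the highest DS38 library had 2.05-fold the level of the lowest. For the other members the coefficient of variation was at most 6.14% in either group. Of the 10931 genes that averaged 4 CPM or more, 1 had a larger fall than Trim66, namely Trib3 at -3.28 on the log2 scale, and Chac1 followed Trim66 at -2.97. The fall was between -3.39 and -3.11 when each library was left out in turn, the smaller size being that without DS38 library 4 and the larger that without DS38 library 2.

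Trim28 (ENSMUSG00000005566) was the most abundant member and shifted little. It stood at 550, 527, 549 and 522 CPM in DMSO libraries 1 to 4 and at 573, 555, 542 and 584 CPM in DS38 libraries 1 to 4. The groups overlapped, with DS38 library 3 inside the DMSO range. The means were 537 ± 14.5 and 563 ± 18.7 CPM (SD, n = 4 each), and the log2 difference of 0.07 (SE 0.040) missed the threshold of edgeR's quasi-likelihood test (Benjamini-Hochberg adjusted p = 0.183). The 95% interval ran from -0.01 to 0.15 on the log2 scale. With libraries scaled by their totals alone the difference was 0.13 and passed (edgeR adjusted p = 0.0139). In GENCODE M21 the gene overlaps Zbtb45 on the opposite strand, and whether counting used strand is not given in the sources used here.

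Trim33 (ENSMUSG00000033014) hardly moved. It stood at 153, 159, 176 and 161 CPM in DMSO libraries 1 to 4 and at 171, 162, 165 and 153 CPM in DS38 libraries 1 to 4, so the ranges lay over each other. The means were 162 ± 9.96 and 163 ± 7.15 CPM (SD, n = 4 each), and the log2 difference of 0.01 (SE 0.047) lay far from the threshold (edgeR adjusted p = 0.942). The 95% interval of the difference ran from -0.09 to 0.10 on the log2 scale, and its sign changed between settings.

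Trim24 (ENSMUSG00000029833) was slightly higher with the compound. It stood at 132, 131, 136 and 133 CPM in DMSO libraries 1 to 4 and at 142, 143, 147 and 141 CPM in DS38 libraries 1 to 4. Every DS38 library lay above every DMSO library, by a narrow gap. The means were 133 ± 2.17 and 143 ± 2.40 CPM (SD, n = 4 each), a 1.08-fold rise with a log2 fold change of 0.11 ± 0.036 SE (edgeR adjusted p = 0.0236; 95% interval 0.03 to 0.19). The call was lost without DMSO library 1 (adjusted p = 0.0519), DMSO library 2 (0.0625), DS38 library 2 (0.0539) or DS38 library 3 (0.0597) in edgeR, and without a filter on low counts (0.126). It was also lost with the replicate number as a block (edgeR adjusted p = 0.061) and without both libraries numbered 1 (0.072).

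Of the 3 members other than Trim66, Trim24 passed an adjusted p under 0.05 in edgeR and Trim28 and Trim33 did not, where 39.5% of all tested genes passed. The groups did not overlap for Trim24, as for 36.1% of all tested genes. Trim66 is not counted here, since it was selected on its log2 fold change in this same contrast.

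**Figure D1:**
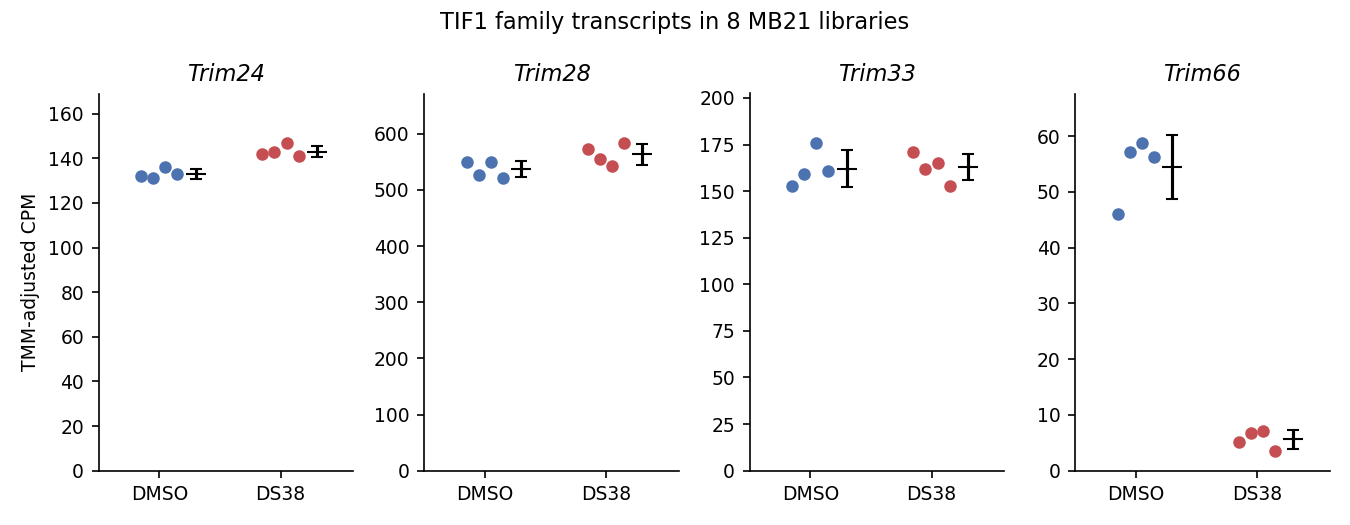
TMM-adjusted CPM of the 4 TIF1 genes, with 1 point per library (blue DMSO, red DS38) and the mean ± SD beside them (n = 4 each). Each axis starts at 0 and has its own scale, and the DS38 points of Trim66 lie between 3.49 and 7.15 CPM while the other members stay near their DMSO level.

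Per length, the order of the members in DMSO was Trim28, then Trim33 and Trim24, then Trim66. Mean levels were 129 ± 3.48 RPKM for Trim28, 16.5 ± 1.02 for Trim33, 15.6 ± 0.254 for Trim24 and 5.38 ± 0.567 for Trim66 (SD, n = 4). The ranges of Trim33 and Trim24 overlapped between libraries. Within libraries the ratio of Trim33 to Trim24 was 1.06 ± 0.0498 and ran from 1.01 to 1.13, a small difference that was not tested. Trim24 was 2.92 ± 0.322 times as high as Trim66 in the same libraries, and Trim28 was 24.2 ± 3.23 times as high.

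In DS38 the order stayed the same at its ends while the distance to Trim66 widened. Trim28 stood at 135 ± 4.49 RPKM, Trim24 at 16.8 ± 0.282, Trim33 at 16.6 ± 0.729 and Trim66 at 0.555 ± 0.165. Trim24 was then 32.7 ± 11.0 times as high as Trim66. In DMSO, 50.3% of tested genes had a lower level per length than Trim66, and in DS38 12.7%.

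Of the summed RPKM of the 4 genes, Trim66 held 2.71, 3.44, 3.38 and 3.4% in DMSO libraries 1 to 4 and 0.293, 0.398, 0.428 and 0.199% in DS38 libraries 1 to 4. The sum itself was 167 ± 3.96 RPKM in DMSO and 169 ± 3.86 in DS38, since Trim28 makes up 77.5% and 79.9% of it. The family's summed level thus differed little between groups.

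The other TRIM genes, most of which encode RING-type ubiquitin ligases, moved in both directions. Of 64 in the table, 31 were tested, 7 rose, 7 fell and 17 did not pass, which is 45.2% called against 39.5% of all tested genes. Their median log2 fold change was 0.06, against -0.01 over all tested genes, and the lowest was -0.42. Where the mean reached 1 CPM the largest falls were those of Trim67 (log2 fold change -0.42, from 3.48 to 2.59 CPM), Trim8 (-0.40, from 153 to 115 CPM) and Trim27 (-0.30, from 91.7 to 74.7 CPM). The largest rises were those of Trim12a (0.71, from 1.52 to 2.53 CPM), Trim36 (0.32) and Trim13 (0.28). Trim63, named after its value was seen, rose most of all (1.44) but from 39 counts in DMSO. Trim12a has close copies beside it in the genome, so its counts are uncertain. The call of Trim67 was lost without DMSO library 1 or 4 or DS38 library 2, 3 or 4 (edgeR adjusted p = 0.0518 to 0.138). It was also lost in DESeq2 (DESeq2 adjusted p = 0.077), with library totals alone (edgeR adjusted p = 0.076), without a filter (0.0508) and without both libraries numbered 1 (0.0673). The call of Trim13 was lost without DMSO library 1 or 4 or DS38 library 1 or 2 (edgeR adjusted p = 0.057 to 0.0653). It was also lost without a filter (edgeR adjusted p = 0.0539) and without both libraries numbered 1 (0.12).

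**Figure D2:**
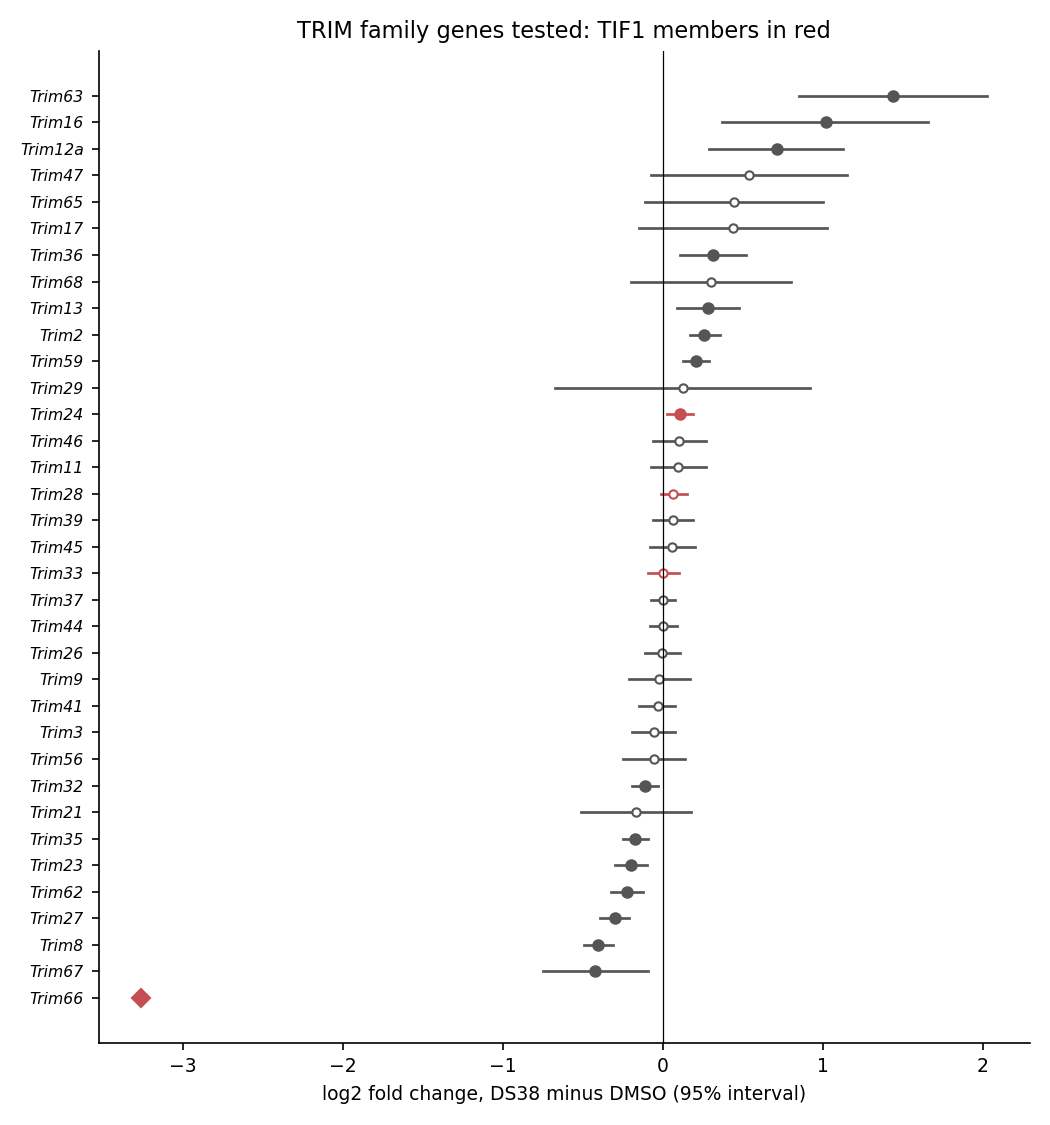
Log2 fold change (DS38 minus DMSO) of the TIF1 members (red) and the 31 other tested TRIM genes (grey), with 95% intervals. Filled circles passed an adjusted p under 0.05 in edgeR and open circles did not. The diamond is Trim66, picked for its strong fall and given without a test, at -3.26 against -0.42 for the next lowest gene.

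Partners of Trim28 in KRAB-directed silencing moved in both directions. All 17 were tested: 4 rose, 4 fell and 9 missed the threshold (47.1% called, against 39.5% of all tested genes; median log2 fold change 0.03). Atf7ip, the cofactor of the histone methyltransferase Setdb1, rose from 114 ± 7.38 to 157 ± 12.3 CPM, by 0.46 on the log2 scale (adjusted p = 1.3e-05 in edgeR), and Resf1, a retroelement silencing factor gene, rose by 0.24 on the log2 scale. Cbx5, which encodes HP1 alpha, fell from 1071 ± 55.1 to 868 ± 28.9 CPM (-0.30 on the log2 scale, adjusted p = 3.2e-05 in edgeR), and Chd3, a helicase gene of the NuRD complex, fell too (-0.41). Setdb1 itself had a log2 difference of -0.03 that did not pass (edgeR adjusted p = 0.573). Scaled by library totals alone, 6 rose and 2 fell. The number of calls was 4 without DMSO library 2, 5 without DS38 library 2 or DS38 library 4, and 5 with the replicate number as a block.

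KRAB zinc finger genes, which encode the DNA-binding clients of Trim28, moved in both directions. Of 262 recognised from transcript sequence, 198 were tested, 18 rose (9.09%, against 18.8% of all tested genes), 30 fell (15.2%, against 20.7%) and 150 missed the threshold. The shares were not compared by a test, and many of these genes have close copies, so their counts are uncertain. Their median log2 fold change was -0.01, the same as over all tested genes. Where the mean reached 1 CPM, Gm29106 rose most (log2 fold change 1.70, from 0.859 to 2.85 CPM), followed by Zfp811 (0.93) and Zkscan16 (0.65). The largest falls were those of Gm5141 (-0.97, from 3.59 to 1.82 CPM), 2010315B03Rik (-0.63) and Gm6871 (-0.53). Scaled by library totals alone, 34 rose and 13 fell, which turned the balance, and without DMSO library 2 there were 29 calls instead of 48. The call of Zkscan16 was lost without DMSO library 1, 2 or 3 or DS38 library 1 or 3 (edgeR adjusted p = 0.0658 to 0.154). It was also lost in DESeq2 (DESeq2 adjusted p = 0.059), in the non-robust fit (edgeR adjusted p = 0.0505) and without both libraries numbered 1 (0.117). The call of 2010315B03Rik was lost without DMSO library 1 or 4 or DS38 library 2 or 4 (edgeR adjusted p = 0.0745 to 0.146). It was also lost in DESeq2 (DESeq2 adjusted p = 0.0674), with library totals alone (edgeR adjusted p = 0.0565) and without both libraries numbered 1 (0.0611).

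Imprinted genes, whose marks the complex of ZFP57 and TRIM28 is known to protect, were higher in most cases. Of the 11 tested, 7 were higher and 0 lower by edgeR's test, a share of 63.6% higher against 18.8% of all tested genes, with a median log2 fold change of 0.40 against -0.01. At an unadjusted p under 0.05 the number of falls was likewise 0, as it was in DESeq2 and limma. For 3 of the 14 listed, Igf2, Dlk1 and Meg3, there were too few counts to test. Peg3, a zinc finger gene, rose from 152 ± 13.3 to 228 ± 14.3 CPM, by 0.59 on the log2 scale (adjusted p = 4.68e-06 in edgeR). Igf2r, the receptor gene that clears insulin-like growth factor 2, rose from 102 ± 8.07 to 140 ± 10.4 CPM, by 0.45. The zinc finger gene Plagl1 (0.40) and the retrotransposon-derived gene Peg10 (0.39) rose as well. Nnat (0.26), Grb10 (0.61) and H19 (0.81) were the other rises, all weaker (edgeR adjusted p = 0.0463, 0.0312 and 0.0393), and the groups overlapped for Nnat and H19. Mest (0.08), Kcnq1ot1 (0.42), Snrpn (-0.01) and Inpp5f (-0.04) did not pass. The count of rises was 4 in DESeq2 and 4 without DMSO library 2, DMSO library 4 or DS38 library 3. The log2 fold change was 0.07 for Trim28 (not passing) and 0.17 for Zfp57 (edgeR adjusted p = 0.0296). These are RNA levels, and any link between the complex and the imprinted genes was not tested.

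Retinoic acid receptors and targets, on which Trim24 acts, moved in both directions. Of 14 listed, 8 were tested, with 3 higher, 2 lower and 3 not past the threshold (62.5% called, against 39.5% of all tested genes; median log2 fold change 0.11). Rara, a retinoic acid receptor gene, rose from 17.2 ± 1.27 to 26.9 ± 1.52 CPM, by 0.65 on the log2 scale (adjusted p = 5.73e-07 in edgeR). Cyp26b1, which encodes a retinoic acid degrading enzyme, rose by 0.28 on the log2 scale. Rxrb, a partner receptor gene, had a log2 fold change of -0.29 and Dhrs3, a retinaldehyde reductase gene, one of -0.85, from 3.29 to 1.81 CPM.

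Among Smad proteins and Smad targets, the setting of Trim33, 1 of 11 tested genes rose and 4 fell (45.5% called, against 39.5% of all tested genes; median log2 fold change -0.07). Scaled by library totals alone, 2 rose and 3 fell. Smad4, the common partner that Trim33 is known to modify, rose from 174 ± 6.69 to 197 ± 5.44 CPM, by 0.18 on the log2 scale (adjusted p = 0.0017 in edgeR). The receptor-regulated Smad3 fell from 82.7 ± 5.30 to 60.8 ± 4.83 CPM (-0.44), and Smad2 (-0.18) and Smad5 (-0.20) fell by less. The target gene Ccn2 had 2 counts in DMSO and 7 in DS38.

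Enzymes that write or erase the histone marks in question were called at 47.1%, against 39.5% of all tested genes. There were 5 rises and 3 falls among 17 tested (median log2 fold change 0.02), and 7 rises and 2 falls with library totals alone. Kdm5b, a demethylase gene for lysine 4 of histone H3, rose from 185 ± 3.68 to 258 ± 16.9 CPM, by 0.49 on the log2 scale, and Kdm1a, another gene of that activity, rose by 0.31. The acetyltransferase gene Crebbp rose (0.27) and Kat5 fell (-0.23). Sirt6, a deacetylase gene, missed the threshold (-0.12, edgeR adjusted p = 0.252).

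Other PHD and bromodomain reader genes showed small changes. Among 12 tested out of 15 there were 4 rises and 2 falls (50% called, against 39.5% of all tested genes; median log2 fold change 0.09). Baz2b rose by 0.35 and Baz2a by 0.22 on the log2 scale, both of them relatives of the TIF1 genes in their reader modules. Cecr2 rose by 0.18 and Zmynd11 had a log2 fold change of -0.12. With library totals alone there were 7 rises and 0 falls, and Zmynd11 lost its call (edgeR adjusted p = 0.203). There were 3 calls without DS38 library 1, where Zmynd11 again lost its call (0.0517).

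**Figure D3:**
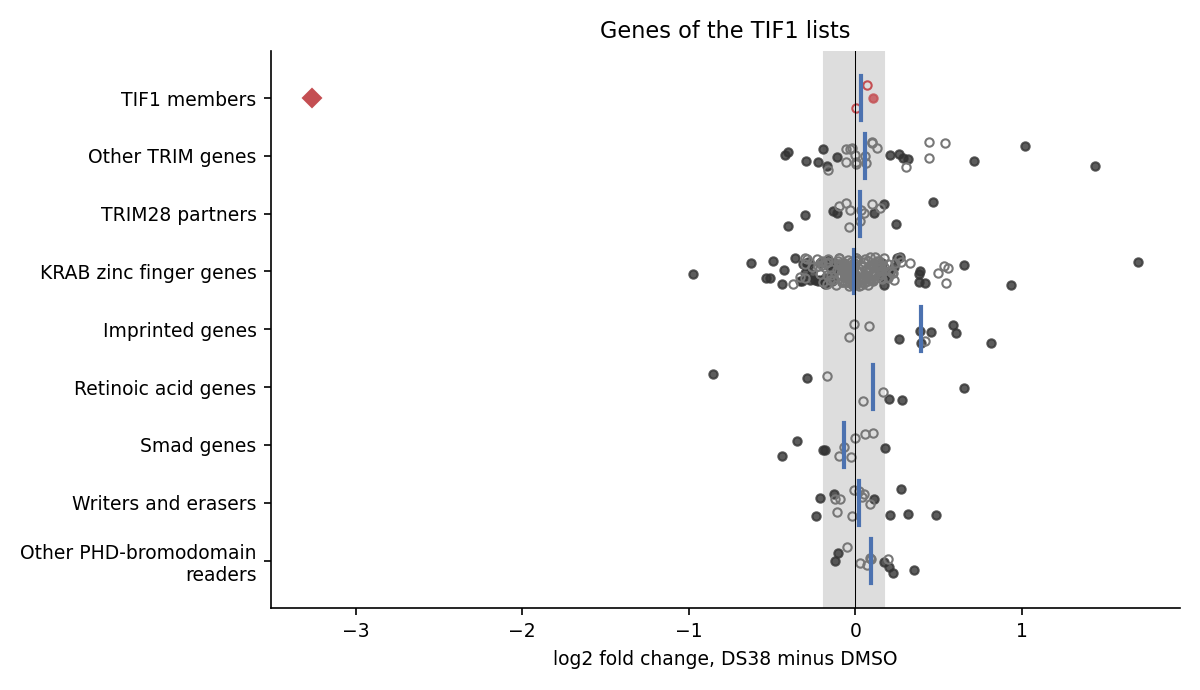
Log2 fold change (DS38 minus DMSO) of each tested gene by list, with 1 circle per gene (filled where it passed an adjusted p under 0.05, open where not; height within a row is random) and the list median as a blue bar. The diamond is Trim66, given without a test, the grey band spans the quartiles of all tested genes (-0.19 to 0.17), and the imprinted genes have the highest median, 0.40.

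The genes whose levels ran most like those of Trim66 over the 8 libraries were sought among 10930 others that averaged 4 CPM or more. By Pearson's correlation of log2 CPM they were Phf10 (r = 0.9975), which encodes a PHD finger subunit of the PBAF remodelling complex, Aldh1l2 (0.9959), a mitochondrial folate enzyme gene, Hhip (0.9952), a Hedgehog-binding protein gene, Calb2 (0.9952), the calretinin gene, and Aldh18a1 (0.9947), a proline synthesis enzyme gene. The libraries share the treatment split, so any gene that fell steadily scores high, and the correlation is a description. The size of the fall was smaller in each, which follows largely from the choice of Trim66 for its strong fall. Means went from 185 to 103 CPM for Phf10, 215 to 48.8 for Aldh1l2, 122 to 43.5 for Hhip, 38.2 to 9.98 for Calb2 and 343 to 146 for Aldh18a1. DS38 library 4 was the lowest library for Trim66 and for each of these genes, which choosing them by correlation over the same libraries favours. The other members were not alike, with r = -0.879 for Trim24, -0.762 for Trim28 and 0.0566 for Trim33.

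**Figure D4:**
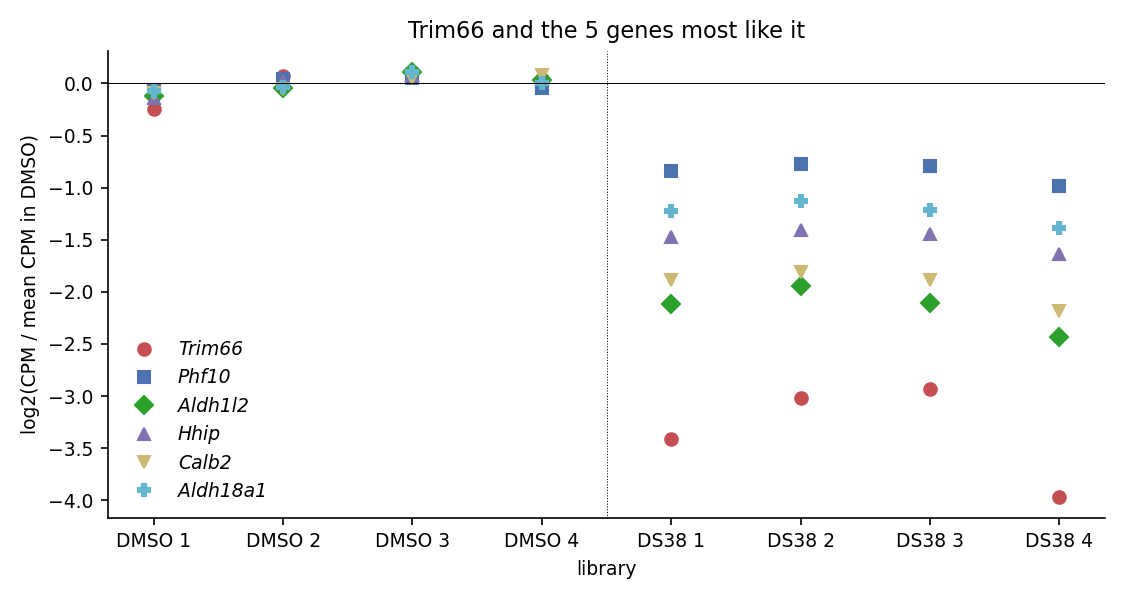
Log2 ratio of CPM to the DMSO mean for Trim66 and the 5 genes with the highest correlation to it, in each of the 8 libraries. In DS38 library 4 every gene is at its lowest, which choosing the genes by correlation over these libraries favours. Trim66, picked for its strong fall and at 3.49 CPM in that library, lies below the other genes in all DS38 libraries.

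When group means were taken out, leaving only the deviations of the 8 libraries, the closest genes were Gm21092 (r = 0.992), the phosphatase gene Ptprm (0.97), the dynein light chain gene Dynlt3 (0.962), 5730455P16Rik (0.961) and the small GTPase gene Arl4c (0.957). None of the 5 was among the genes alike over the whole set. Trim24 (r = 0.654) and Trim33 (0.521) had positive correlations with Trim66 and Trim28 (-0.785) a negative one. Among the 10930 genes they ranked 598, 1276 and 10567. Many genes thus reached values like those of Trim24 and Trim33. The 5 named first were picked as the highest of the 10930, so their high values are built in. With only 8 libraries these correlations are a description and were not tested.

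The genes next to Trim66 in the reference order moved in both directions. Of the 5 nearest on each side, 5 were tested. Rpl27a, the neighbouring ribosomal protein gene, went from 877 ± 90.3 to 743 ± 11.6 CPM (-0.24 on the log2 scale, adjusted p = 0.00399 in edgeR). St5 rose from 3.09 to 4.78 CPM (0.62) and Lmo1, a LIM-domain gene, from 2.37 to 3.27 CPM (0.46), though the call of Lmo1 was lost without DMSO library 2 or 3 or DS38 library 2 or 3 (edgeR adjusted p = 0.0535 to 0.0869). The predicted gene Gm9105 fell from 0.646 to 0.285 CPM (log2 fold change -1.20, edgeR adjusted p = 0.0107), on 56 and 25 counts. Akip1 did not pass (-0.28, edgeR adjusted p = 0.0635; 0.03 without DS38 library 1). The kinase gene Stk33 had 22 counts in DMSO and 24 in DS38.

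Since Trim66 is known from testis, germ cell markers were read beside it. Tnp1 had no counts in any library, Dazl had 1 count in DS38, Sycp3 had 3 counts in DMSO and 5 in DS38, and Ddx4 had 37 and 47. Prm1, a protamine gene, was the tested one and fell from 16.7 to 8.75 CPM. The summed list stood at 14 to 18.3 CPM in DMSO and 8.88 to 10.6 CPM in DS38. Nearly all of it came from Prm1, so its fall is that of a single gene. Its part in the fall of Trim66 was not tested.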

How the data were processed

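Counts per gene, deposited by the authors without normalization, were used for 8 libraries, together with the other deposited value, gene length in bases. The builds GRCh38.p13 and GRCm39, and the tools edgeR, R 4.1.0, Subread 2.0.3, featureCounts and STAR 2.7.9a are listed in the submitters' processing notes. The sources used here give neither the strand setting nor how multiply matching reads were treated, so overlapping genes and close copies can share reads. Of 55416 identifiers 52083 matched a symbol in GENCODE M21, which served for names, for overlaps between genes and for transcript sequence; none of its coordinates is printed.

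Genes were tested with edgeR 4.0.16 (quasi-likelihood, robust, TMM, default filterByExpr with a minimum of 10 counts) in R 4.3.3, DS38 against DMSO, adjusted by Benjamini-Hochberg over 15133 genes, after a test on simulated data. Intervals use the fit's moderated degrees of freedom. The members and lists were chosen with earlier results of these data known. Named genes were the members, 4 genes with the smallest p in each list, the 3 largest called changes in each direction among other TRIM and among KRAB zinc finger genes whose mean reached 1 CPM, 5 neighbours on each side of Trim66, and the 5 genes most like it by either measure. Other genes, such as Setdb1, Sirt6, Zfp57, Trim63 and the markers, were named after their values were seen. KRAB genes were to come from a protein table not used here; instead GENCODE transcripts of protein-coding genes were translated and searched for a KRAB pattern and at least 3 zinc fingers. Alternatives were DESeq2 1.42.0, limma 3.58.1 (voom), other scalings and filters, a non-robust fit, the replicate number as a block, each library left out, and both libraries numbered 1 left out, which was chosen after seeing the data.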

Additional observations from a re-analysis of the deposited data

Results flagged for a closer look

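The named genes gave 120 groups of 4 libraries, of which 9 held a library that stood apart by the Dixon gap at its 95% critical value. Chance flags about 1 in 20 groups. The 120 include the groups of Gm44781, 1700095J03Rik and Snora3, which had no counts and could not be flagged. None of the 9 belonged to a TIF1 member. In DS38 library 4, Cecr2 stood at 211 CPM against 229 to 232 in the other DS38 libraries, and Rara at 24.7 against 27.5 to 27.9. In DS38 library 1, Smad4 stood at 205 CPM against 193 to 195. In DMSO library 1, Gm21092 stood at 6.3 CPM against 6.74 to 6.8 and Trim36 at 9.71 against 8.11 to 8.37. In DMSO library 2, Gm29106 stood at 1.3 CPM against 0.663 to 0.762 and Kdm1a at 218 against 226 in each of the others. In DMSO library 4, Peg10 stood at 64.6 CPM against 59.8 in each of the others, rounded, and Trim27 at 87.3 against 92.7 to 93.4.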

How the results depend on the processing

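Trim66 kept its fall in all alternatives run, and its log2 fold change lay between -3.39 and -3.11 with single libraries left out. Trim24 kept its direction, at 0.10 to 0.12 with single libraries left out, and lost its call in edgeR without a filter (0.10, adjusted p = 0.126), with the replicate number as a block (0.11, adjusted p = 0.061) and without both libraries numbered 1 (0.11, adjusted p = 0.072). Trim28 gained a call with library totals alone (0.13). Trim33, not called in any alternative run, ranged from -0.02 to 0.04 with single libraries left out and was negative without a filter (-0.01) and without both libraries numbered 1 (-0.05).

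With single libraries left out, the number of calls ranged from 29 to 44 for KRAB zinc finger genes, 4 to 8 for Trim28 partners, 4 to 6 for imprinted genes and 3 to 6 for other reader genes. Same-numbered libraries had deviations correlated across genes at 0.331 for number 1, the highest of all pairs, and at -0.0699, 0.067 and -0.0816 for numbers 2, 3 and 4. Since only number 1 exceeded 0.1, the numbers were not taken to pair the libraries. Over all genes the replicate block gave 5594 calls instead of 5980. The replicate block gave 5 calls for Trim28 partners, DESeq2 gave 4 for imprinted genes, and leaving out both libraries numbered 1 gave 3 for reader genes. Library totals alone moved the share of rises among all calls from 47.5% to 64.3% and the median log2 fold change from -0.01 to 0.05. Of the other named gene values under alternatives, 821 kept direction and call, 39 lost the call, 2 gained it, and none changed direction. In the 150 bases before the start, the shares of windows were 1.23% for GATGCAA, 24.5% for CCAAT, 28.6% for GGGCGG and 7.57% for TATAAA. The cause of these shifts was not tested. At 509 counts over 4 DS38 libraries, Trim66 was the member with the least depth.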
